A study of Mus musculus with 8 samples.

Results

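The 4 ERRα ChIP-seq lists of mouse skeletal muscle and liver held 126927 peaks. Of these, 1814 were annotated to a simple repeat or a stretch of low complexity outside promoters. They were taken as all rows whose detailed annotation named a Simple_repeat or a Low_complexity element and whose position was not annotated as promoter-TSS, and they are called repeat peaks below. WT muscle held 319 of 25427 peaks, ERRα3SA muscle 810 of 50647, WT liver 289 of 21813 and ERRα3SA liver 396 of 29040. ERRα was precipitated from tissue of male C57BL/6N mice of 2 to 3 months with no stated treatment, either WT or carrying the ERRα3SA phospho-mutation, in which regulated phosphosites of the amino-terminal domain of ERRα are inactivated. Muscle (gastrocnemius and soleus) was pooled from 5 mice per genotype and liver from 2 mice, and each list came from 1 sequenced sample pooled from 3 immunoprecipitations, so that genotypes and tissues were compared without replicates, and a difference in antibody yield, sequencing depth, cell make-up or animals cannot be told apart from one of genotype. Intervals below are 95% intervals that cover counting error only, and the depth behind the lists is unknown here.

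Simple repeats, or microsatellites, are tandem copies of a unit of a few bases, and low complexity elements are stretches rich in 1 or a pair of bases. They arise by slippage of the polymerase, are scattered through introns and between genes, and are hard to place with short reads. ERRα is an orphan nuclear receptor that binds the extended half-site TCAAGGTCA, the ERR response element (ERRE), as a monomer or dimer, and controls genes of mitochondrial energy metabolism in muscle and liver. The repeat TTAGGG is that of the telomeres, of which copies also lie inside chromosomes.

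The sequences below show the kinds of element under the peaks that the results turn on. All are read 5′ to 3′ on the plus strand of GRCm38 patch 6, which carries the mm10 coordinates of the lists. In the first 3, near Adgra1, C1qa and Dip2c, capitals mark the ERRE on either strand. At Adgra1, found in all 4 lists, and at C1qa the ERRE lay inside a degenerate telomere-type array, while at Dip2c, the best-ranked repeat peak of ERRα3SA liver with an ERRE, it lay beside the repeat.
Adgra1, chr7:139820717-139820827: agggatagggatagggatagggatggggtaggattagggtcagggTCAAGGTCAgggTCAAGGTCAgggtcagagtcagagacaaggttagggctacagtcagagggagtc
C1qa, chr4:136898123-136898191: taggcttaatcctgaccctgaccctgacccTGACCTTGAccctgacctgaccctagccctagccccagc
Dip2c, chr13:9222996-9223054: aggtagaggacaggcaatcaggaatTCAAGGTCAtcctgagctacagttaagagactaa

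In the next 3, capitals mark the longest exact tandem run of a unit of up to 6 bases within the called interval. Those near P4ha2 and Lrrtm3 were found in all 4 lists, and that in 2700054A10Rik was the best-ranked repeat peak of both muscle lists.
2700054A10Rik, chr17:13550685-13550763: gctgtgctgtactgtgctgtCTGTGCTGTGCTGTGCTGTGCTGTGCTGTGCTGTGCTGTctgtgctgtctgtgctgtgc
P4ha2, chr11:54140329-54140408: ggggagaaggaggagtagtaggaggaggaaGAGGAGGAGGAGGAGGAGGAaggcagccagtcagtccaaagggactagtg
Lrrtm3, chr10:64284482-64284704: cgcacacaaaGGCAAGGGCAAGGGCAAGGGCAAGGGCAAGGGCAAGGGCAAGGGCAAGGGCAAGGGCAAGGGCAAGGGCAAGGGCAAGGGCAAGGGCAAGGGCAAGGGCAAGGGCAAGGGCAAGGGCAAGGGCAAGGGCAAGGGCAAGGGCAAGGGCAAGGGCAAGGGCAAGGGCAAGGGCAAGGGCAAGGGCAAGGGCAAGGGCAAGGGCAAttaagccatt

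The repeat peaks made up a small part of each of the 4 lists. They were 1.34% of the non-promoter peaks of WT muscle (1.20 to 1.49), 1.66% in ERRα3SA muscle (1.55 to 1.78), 1.40% in WT liver (1.25 to 1.57) and 1.46% in ERRα3SA liver (1.32 to 1.61). Muscle held 2.54 times as many of them in ERRα3SA mice as in WT mice (2.23 to 2.89), against 2.03 times for the other non-promoter peaks (2.00 to 2.06). SINE peaks, with 2.33 (2.19 to 2.48), and LTR peaks, with 2.35 (2.23 to 2.48), were near the value of the repeat peaks. In liver the ratios were 1.37 (1.18 to 1.59) and 1.32 (1.29 to 1.34). With the ERRα3SA muscle list cut to its best 25427 peaks, the length of the WT list, the ratio was 1.42, beside 1.01 for the other non-promoter peaks. The latter is near 1 because the lists were made equally long. That cut fell among peaks of tied score, which were taken in list order. The 1.42 therefore depends on that order, and how far was not tested. At scores of 100 or more the muscle ratio was 2.18 for repeat peaks (1.45 to 3.28) and 2.30 for the others.

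All repeat peaks were annotated as intronic or intergenic. No promoter row named such an element in any list, so this location may be set by the annotation, which was not tested. Of the repeat peaks 38.9% to 50.5% lay within 20 kb of a TSS, beside 44.5% to 52.3% of the other non-promoter peaks. The latter were not limited to introns and intergenic regions, so these shares are not like for like. The intergenic part was 169 of 319 in WT muscle, 425 of 810 in ERRα3SA muscle, 151 of 289 in WT liver and 182 of 396 in ERRα3SA liver. The base at the centre of the interval was repeat-masked in the genome in 83.4% to 91.7% of them. Their intervals were 416 to 450 bp wide at the median, and their GC fraction was 0.498 to 0.540, 0.002 to 0.007 away from that of the other non-promoter peaks of the list.

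Simple repeats, and among them those of the AC dinucleotide, were more numerous in ERRα3SA muscle than in WT muscle. Simple repeats were 245 of the 319 repeat peaks of WT muscle, 659 of 810 in ERRα3SA muscle, 216 of 289 in WT liver and 309 of 396 in ERRα3SA liver. Their number was 2.69 times higher in ERRα3SA muscle than in WT muscle (2.32 to 3.11), that of low complexity elements 2.04 times (1.55 to 2.69). Repeats of the AC dinucleotide, written CA or TG by strand, were the largest class in every list, with 69, 231, 82 and 102 peaks in the order WT muscle, ERRα3SA muscle, WT liver, ERRα3SA liver. Their ratio of 3.35 in muscle (2.56 to 4.38) was the only one, among the 5 largest classes, whose interval lay wholly above the 2.03 of the other non-promoter peaks, and in liver it was 1.24 (0.931 to 1.66).

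**Figure D1:**
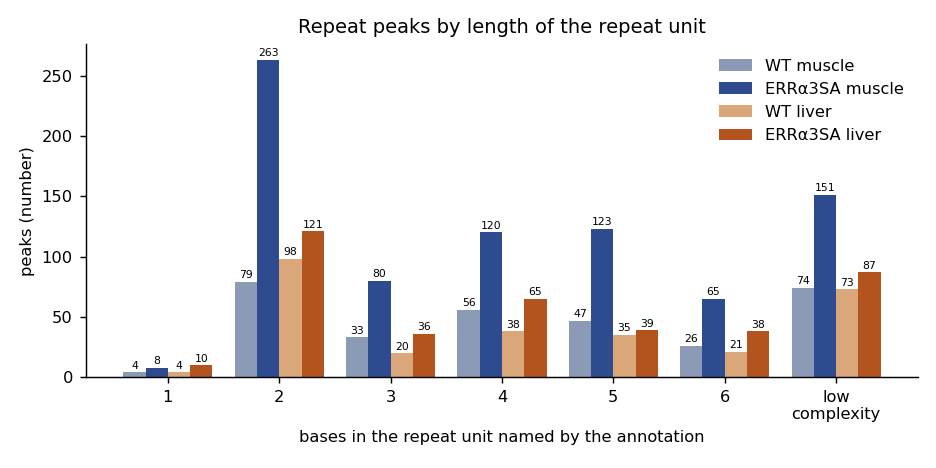
Number of repeat peaks in each list (y axis) by the number of bases in the repeat unit that the annotation names (x axis), with low complexity elements at the right and the number over each bar. Units of 2 bases number 79 in WT muscle and 263 in ERRα3SA muscle, and 98 and 121 in WT and ERRα3SA liver.

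Tandem runs in the AC class had the same median length in both muscle lists. The median of the longest exact run in an AC interval was 34.0 bp in both muscle lists, 36.0 bp in WT liver and 38.0 bp in ERRα3SA liver. The longest was 108 bp in WT muscle, 327 bp in ERRα3SA muscle, and in liver 67 bp in WT and 63 bp in ERRα3SA mice. Runs over 100 bp were found in 1 of 69 AC peaks of WT muscle, or 1.45%, in 5 of 231 of ERRα3SA muscle, or 2.16%, and in none of the AC peaks of liver. Over all repeat peaks they were found in 12, 54, 10 and 7 in the order of the lists, or 3.76%, 6.67%, 3.46% and 1.77%. The run of 327 bp lay near Kcnj5, a potassium channel gene. This region was named after its values were seen.

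Pentamers of the ACAGC class, written CTGTG or CACAG, had 8 peaks in WT muscle, 27 in ERRα3SA muscle, 8 in WT liver and 3 in ERRα3SA liver. Those of the AGAGC class, which was not among the 5 largest, had 4, 24, 2 and 1. Their ratio of 6.00 in muscle (2.18 to 16.5) also lay above the 2.03 of the other non-promoter peaks. In muscle, units of 5 and 6 bases had the largest shares of high ranks. There, 21.3% of the WT peaks with units of 5 bases and 17.1% of those of ERRα3SA fell in the best 5% of their list, and 23.1% and 15.4% of those with units of 6 bases, beside 7.59% and 6.46% for units of 2 bases. In liver the order was another, with 8.57% and 7.69% for units of 5 bases in WT and ERRα3SA mice, 9.52% and 18.4% for units of 6, and 2 of 20 and 2 of 36 for units of 3.

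Repeat peaks had the same median rank as the other non-promoter peaks in 3 lists, where tied scores fix the median, and a better one in ERRα3SA liver. The median rank was at 50.8% of the list in WT muscle, 48.5% in ERRα3SA muscle and 50.4% in WT liver, equal to that of the other non-promoter peaks because many weak peaks tie at the same score, and at 40.9% in ERRα3SA liver, beside 47.9%. The best 40% of the list held 43.9% of the repeat peaks and 39.3% of the others in WT muscle, 46.7% and 38.1% in ERRα3SA muscle, 46.0% and 36.8% in WT liver, and 48.0% and 37.8% in ERRα3SA liver. The best 5% of the list held 33 of the 319 repeat peaks of WT muscle, or 10.3% (7.46 to 14.2), where 4.58% of all its non-promoter peaks reached it. In ERRα3SA muscle it held 72, or 8.89% (7.12 to 11.0), against 4.73%. In WT liver it held 18, or 6.23% (3.98 to 9.63), against 4.71%, and in ERRα3SA liver 34, or 8.59% (6.21 to 11.8), against 4.74%. The difference from the other non-promoter peaks was 5.85 percentage points in WT muscle (2.95 to 9.68), 4.23 in ERRα3SA muscle (2.44 to 6.39) and 3.91 in ERRα3SA liver (1.52 to 7.09), while in WT liver its interval of -0.735 to 4.95 included 0. In the best 1% the repeat peaks of ERRα3SA liver were 0.505% and the others 0.883%, with an interval of the difference of -0.764 to 0.943. In the best 5% they stood near SINE peaks, of which 6.14% to 8.10% were there, and above LINE peaks, of which 0.850% to 1.46% were.

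In muscle the best-ranked repeat peak of both genotypes lay on a CTGTG repeat in intron 1 of 2700054A10Rik, 2.19 kb from its TSS. It had a score of 2700 and rank 11 in WT muscle and a score of 3896 and rank 13 in ERRα3SA muscle, over nearly the same interval of 2452 and 2463 bp. In liver the region was called in narrower intervals, 2 in WT liver with scores of 762 and 408, and 1 of score 168 in ERRα3SA liver. A second CTGTG repeat, in intron 1 of Smo, which transduces the Hedgehog signal, ranked 126 in WT muscle and 105 in ERRα3SA muscle but 2218 and 5141 in WT and ERRα3SA liver. A CACTC repeat at chr17:4626165-4626588 near 4930517M08Rik ranked 74 in WT muscle and 176 in ERRα3SA muscle. A CGCGG repeat in intron 1 of B4galt5, a galactosyltransferase of glycolipid synthesis, ranked 91 in WT muscle, and peaks within 300 bp of it ranked 58 in ERRα3SA muscle, 96 in WT liver and 48 in ERRα3SA liver.

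In WT liver the 2700054A10Rik and P4ha2 sites were again among the 5 best-ranked, and the other 3 regions were not among the 5 best of either muscle list. A TG repeat 18.1 kb from the TSS of Mvk, the mevalonate kinase of cholesterol synthesis, was the best of WT liver with a score of 1155 and rank 89. A peak at the same place scored 1509 in ERRα3SA liver, where it was not annotated to the repeat, and 33 and 57 in WT and ERRα3SA muscle. Next in WT liver came the 2700054A10Rik repeat, the P4ha2 site, a CAA repeat near Lbr, the lamin B receptor, at rank 213, and an AT-rich stretch in intron 5 of Xpo1, a nuclear export receptor, at rank 249. The Lbr peak had no partner in ERRα3SA liver within the distance used below, and the Xpo1 peak had one of score 633.

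ERRα3SA liver was led by a G-rich stretch near Iqgap2, a scaffold protein, with a score of 1017 and rank 180. It was followed by the TC repeat near Dip2c at rank 219, a TTCC repeat in intron 1 of H6pd, the hexose-6-phosphate dehydrogenase of the endoplasmic reticulum, and a CCCA repeat near Pxylp1, both at rank 302, and a CTGGGG repeat in intron 2 of Lrba at rank 314. All 5 had a partner in WT liver, with scores of 786, 554, 693, 580 and 700. Scores rank peaks within a list. Where scores, or a limit of 100, are set side by side between lists, they are the deposited numbers, and whether they are on 1 scale across lists is not known.

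Sharing between genotypes was counted as a peak of the other genotype of the same tissue whose centre lay within 300 bp. In WT muscle 90 of the 319 repeat peaks had such a partner, or 28.2% (23.6 to 33.4), where 19.5% of all non-promoter peaks did. In ERRα3SA muscle 86 of 810 had one, or 10.6% (8.68 to 12.9), against 9.54%. In WT liver it was 134 of 289, or 46.4% (40.7 to 52.1), against 41.9%, and in ERRα3SA liver 157 of 396, or 39.6% (35.0 to 44.5), against 31.7%. The difference from the other non-promoter peaks of the list was 8.85 percentage points in WT muscle (4.17 to 14.1) and 8.05 in ERRα3SA liver (3.32 to 13.0), while the intervals of -0.860 to 3.42 in ERRα3SA muscle and -1.17 to 10.3 in WT liver included 0.

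Sharing rose with the score, and scores of 100 or more were reached by 10.3%, 8.89%, 22.5% and 27.3% of the repeat peaks, in the order WT muscle, ERRα3SA muscle, WT liver, ERRα3SA liver, beside 4.12%, 4.66%, 16.6% and 19.9% of the others. Sharing was therefore also compared within score classes. In ERRα3SA liver the difference was 1.94 points at scores of 30 to 49 (-2.08 to 7.52), -0.540 at 50 to 99 (-9.35 to 9.01) and 4.17 at 100 or more (-3.66 to 9.57). In WT muscle it remained at 5.47 points among the weakest peaks (1.14 to 10.7). By centre distance, the class of 100 or more in ERRα3SA muscle went the other way. There 31 of 72 repeat peaks had a partner in WT muscle, or 43.1% (32.3 to 54.6), against 68.1% of 2234 other non-promoter peaks, a difference of -25.1 points (-36.0 to -13.4). With shared bases in place of centre distances the values were 59.7% and 80.1%, a difference of -20.4 points (-32.0 to -9.66). By shared bases the repeat peaks of this class were also below the others in WT muscle, at 90.9% and 97.7% (difference -21.3 to -0.764), and in WT liver, at 93.8% and 97.8% (-12.6 to -0.145), but not in ERRα3SA liver, at 93.5% and 90.4% (-3.20 to 6.55). By centre distance 27 of 33 repeat peaks of WT muscle in this class had a partner, or 81.8%, and 82.6% of the others.

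**Figure D2:**
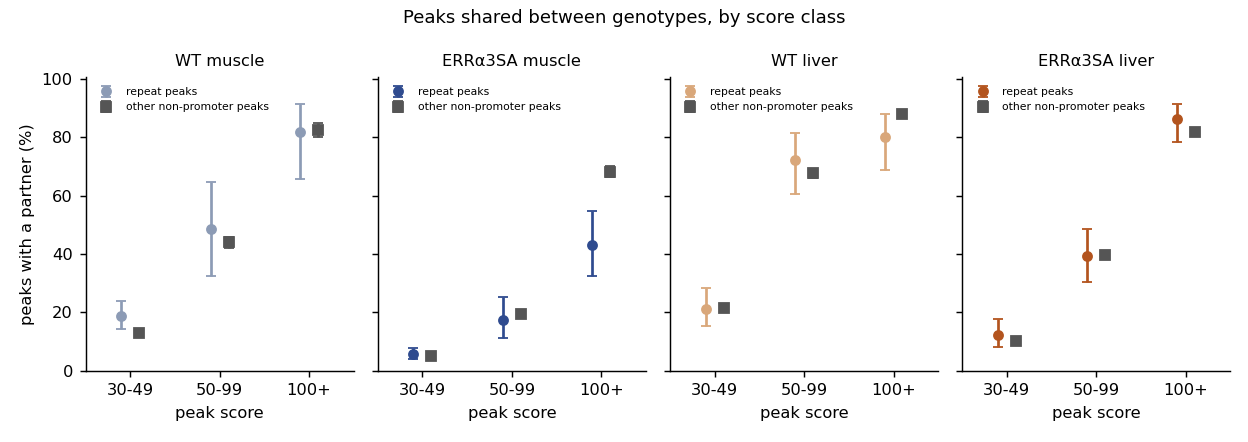
Percentage of peaks with a partner within 300 bp in the other genotype of the tissue (y axis) by score class (x axis), 1 panel per list, for repeat peaks (circles) and other non-promoter peaks (squares) with 95% Wilson intervals. The classes overlap in most panels, and at 100 or more in ERRα3SA muscle the repeat peaks stand at 43.1% and the others at 68.1%.

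The 41 strong repeat peaks of ERRα3SA muscle without a partner were narrower at the median than the other strong peaks of that list. Their intervals had a median of 467 bp, against 763 bp for the 31 with a partner. Strong other non-promoter peaks had medians of 752 bp for the 712 without a partner and 775 bp for the 1522 with one. Over all scores the median in this list was 416 bp, both for repeat peaks and for the other non-promoter peaks. Of the 41, 29 shared no base with a WT muscle interval, and these had a median width of 404 bp, beside 549 bp for the 445 other non-promoter peaks of that state. The ERRE was present in 2 of the 41 and in 3 of the 31, beside 132 of 712 other non-promoter peaks without a partner and 311 of 1522 with one. In 10 of the 41 a peak of either liver list lay within 300 bp, as it did in 23 of the 31, beside 422 of the 712 and 1124 of the 1522.

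The 3 best-ranked of the 41 were annotated to pentamer repeats, in intervals of 271 to 304 bp. The TCCTG repeat near 2210010C04Rik had a score of 1700 and rank 43 in ERRα3SA muscle, and the nearest WT muscle centre was 35206 bp away. A stretch annotated as a CACAG repeat in intron 28 of Atrnl1, nearest to the TSS of Mir5623 at chr19:58113301-58113571, ranked 107. Its longest exact tandem run was only 6 bp, of a 3-base unit, against 82 bp of a 5-base unit near 2210010C04Rik. The interval annotated to CACAG thus held no exact tandem copies of the pentamer. A TCTTG repeat at chr10:110911418-110911706, 8.61 kb from the TSS of Csrp2, a LIM domain protein, ranked 199. Neither liver list held a peak within 300 bp of these 3. The TG repeat near Kcnj5, at rank 264, overlapped a WT muscle interval whose centre was 748 bp away, so that its lack of a partner rests on the centre distance. The 3 best-ranked of WT muscle without a partner, near Mir6546, Gm14496 and Olfr161, reached ranks of 847, 939 and 1017, and those near Mir6546 and Olfr161 overlapped an ERRα3SA interval.

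**Figure D3:**
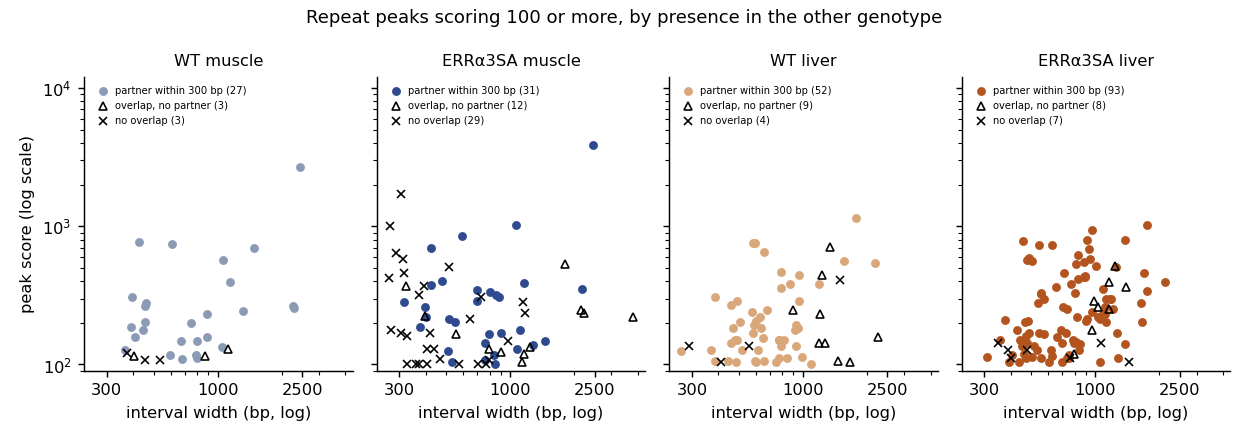
Score (y axis, log scale) against interval width in bp (x axis, log scale) of the repeat peaks scoring 100 or more, 1 panel per list, by whether the other genotype of the tissue had a partner within 300 bp, an overlapping interval only, or neither, with numbers in brackets. With no overlap were 29 of 72 peaks in ERRα3SA muscle and 3 of 33 in WT muscle. In liver they were 4 of 65 in WT and 7 of 108 in ERRα3SA mice. The highest-scoring ones of ERRα3SA muscle are narrow. Among other non-promoter peaks at these scores, 445 of 2234 in ERRα3SA muscle and 22 of 970 in WT muscle had no overlap. In liver 75 of 3359 in WT and 511 of 5309 in ERRα3SA mice had none.

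In liver the best-ranked repeat peaks without a partner were wide, at 1159 to 1504 bp, and all but the second interval of 2700054A10Rik overlapped an interval of the other genotype. Those of WT liver lay near Lbr, near Elp6, a subunit of the Elongator complex, at rank 495, and on the second interval of 2700054A10Rik at rank 579. Those of ERRα3SA liver lay near Pcdh1, in intron 1 of Cmtm7 and near Kdelr2, a receptor that returns proteins to the endoplasmic reticulum, at ranks 692, 1007 and 1130. All 3 of ERRα3SA liver overlapped a WT liver interval, with centres 425 to 536 bp away. Over all liver peaks of 100 or more, 80.0% of the WT and 86.1% of the ERRα3SA repeat peaks had a partner, beside 87.8% and 81.9% of the other non-promoter peaks.

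When repeat peaks of the 4 lists with centres within 300 bp were joined, they made 1650 sites, of which 1522, or 92.2%, were held by 1 list. Joined in the same way, the other non-promoter peaks made 97617 sites, of which 84.8% were held by 1 list. ERRα3SA muscle alone held 729, ERRα3SA liver 323, WT muscle 253 and WT liver 217. Both muscle lists shared 35 sites found in no liver list, and both liver lists shared 33 found in no muscle list. Only repeat peaks entered this count, so that a site whose peak in another list was centred just beside the repeat counted as absent there.

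A total of 9 sites were repeat peaks in all 4 lists. The best by mean rank was the GGA repeat 39.4 kb from the TSS of P4ha2, a subunit of the collagen prolyl hydroxylase, which lay at 0.326% of the WT muscle list, 0.274% of ERRα3SA muscle, 0.866% of WT liver and 1.28% of ERRα3SA liver. Its intervals of 540 to 608 bp held no ERRE near their centre. TTAGGG repeats made up 3 of the 9, near Tcstv3, A630089N07Rik and Adgra1. The Smo, E330013P04Rik and 5830444B04Rik sites were on pentamers and ranked better in both muscle lists than in either liver list. The Lrrtm3 site, in intron 9 of Ctnna3, was named a CAAGG repeat but read as a hexamer run of 203 bp, as printed above. It ranked at 30.9% of the list in WT muscle and 1.88% in ERRα3SA muscle, and the CA repeat in intron 4 of Dnmbp, a scaffold protein of dynamin, at 30.9% and 3.77%.

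**Figure D4:**
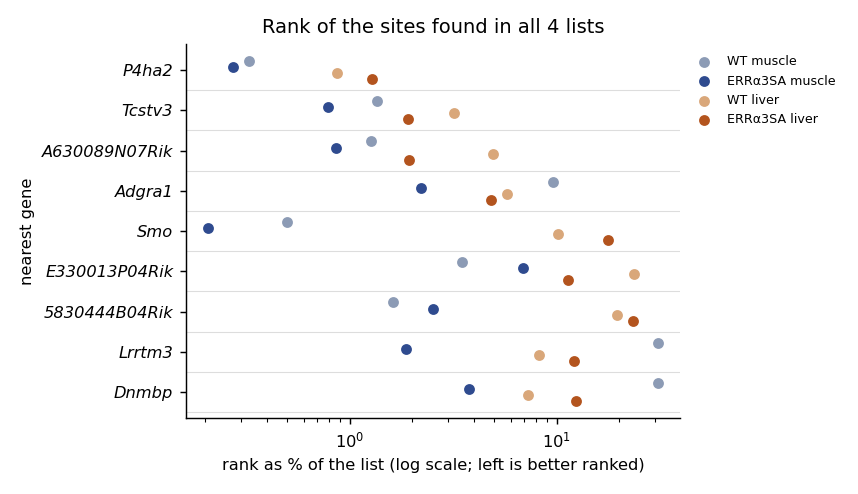
Rank of the 9 sites held by all 4 lists as a percentage of the list (x axis, log scale, better ranks to the left), labelled by nearest gene (y axis) and coloured by list. The P4ha2 site lies between 0.274% and 1.28% in every list, whereas the Smo site lies at 0.208% and 0.496% in muscle and at 10.2% and 17.8% in liver.

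Peaks on telomere-type repeats were few, and 14 of the 34 in all lay in the best 5% of their list. A site held by several lists was counted once in each, so that the 34 are not separate sites. Those near Tcstv3 and A630089N07Rik were in the best 5% of all 4 lists. On TTAGGG or its complement there were 4 in WT muscle, 10 in ERRα3SA muscle, 8 in WT liver and 12 in ERRα3SA liver, and 3, 5, 2 and 4 of them were so ranked. Among all non-promoter peaks of the lists 4.58% to 4.74% were. All 4 in WT muscle, 4 of the 10 in ERRα3SA muscle, all 8 in WT liver and 8 of the 12 in ERRα3SA liver had a partner in the other genotype. In the same order 19.5%, 9.54%, 41.9% and 31.7% of all non-promoter peaks had one. Of the 34, 20 lay within 1000 bp of the last sequenced base of a chromosome, where the assembly stops short of the telomere, at 7 chromosome ends in all. No repeat peak of another unit lay so near to an end. The site near Tcstv3, with gaps of 97 to 202 bp to the last base, ranked between 0.790% and 3.20% of the lists, and that near A630089N07Rik between 0.860% and 4.94%. The end near Vmn2r87, a pheromone receptor gene, held scores of 509 in ERRα3SA muscle, 82 in WT liver and 734 in ERRα3SA liver.

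The ERRE was present in the central 300 bp of 4.08% of the repeat peaks of WT muscle (2.40 to 6.85), or 13 of 319, where 3.95% of all non-promoter peaks held it. In ERRα3SA muscle it was 27 of 810, or 3.33% (2.30 to 4.81), against 4.31%. In WT liver it was 33 of 289, or 11.4% (8.25 to 15.6), against 14.8%, and in ERRα3SA liver 77 of 396, or 19.4% (15.8 to 23.6), against 15.7%. Windows 5 kb to either side of the repeat peaks held it in 0.379% to 1.17% of cases, and the reversed motif ACTGGAACT was in 1, 1, 1 and 3 repeat peaks. Only in ERRα3SA liver did the interval of the difference from the other non-promoter peaks exclude 0, at 3.82 percentage points (0.191 to 8.02). Within score classes of that list it was 1.47 points at 30 to 49 (-2.24 to 6.80) and 4.28 at 50 to 99 (-3.19 to 13.4). At 100 or more it was 1.14 (-6.52 to 10.3), so that each of these intervals included 0. With the core AAGGTCA in place of the full motif the difference over all scores was turned, with 34.8% of the repeat peaks and 37.2% of the others.

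Among the strongest peaks of ERRα3SA muscle and WT liver, repeat peaks held the ERRE less often than the others. At scores of 100 or more it was in 5 of 72 repeat peaks of ERRα3SA muscle, or 6.94% (3.00 to 15.2), against 19.8% of the others, a difference of -12.9 points (-17.2 to -4.43). In WT muscle it was in 2 of 33, or 6.06%, against 18.5%, with an interval of the difference of -17.5 to 1.35. In WT liver it was in 11 of 65, or 16.9%, against 28.3%, a difference of -11.4 points (-18.8 to -0.423). In ERRα3SA liver it was in 30 of 108, or 27.8%, against 26.6%, and the interval of -6.52 to 10.3 included 0. None of the 5 best-ranked repeat peaks of either muscle list or of WT liver held it.

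**Figure D5:**
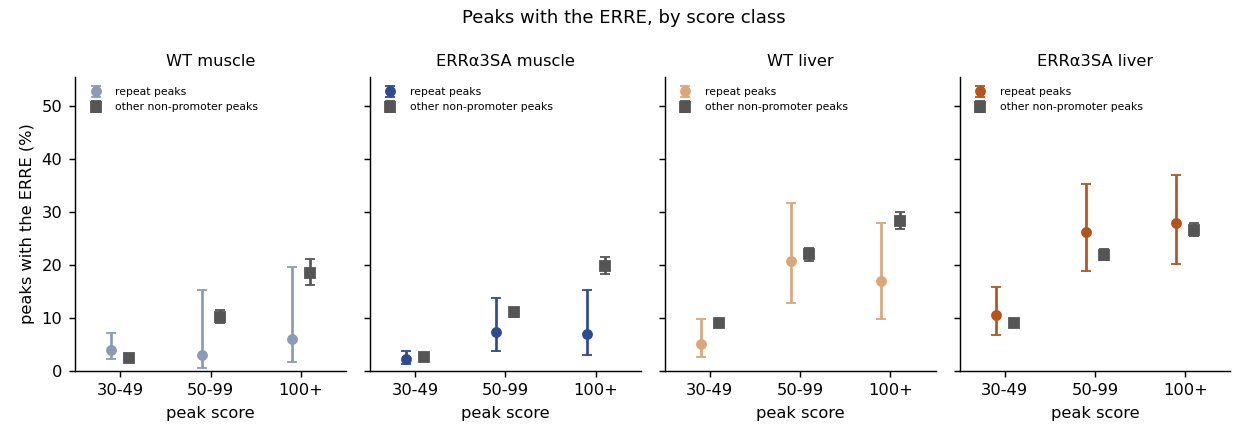
Percentage of peaks with TCAAGGTCA on either strand in the central 300 bp (y axis) by score class (x axis), 1 panel per list, for repeat peaks (circles) and other non-promoter peaks (squares) with 95% Wilson intervals. At 100 or more the repeat peaks of muscle stand at 6.06% and 6.94% and the others at 18.5% and 19.8%, whereas in ERRα3SA liver they stand at 27.8% and 26.6%.

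By kind of repeat, the ERRE was much more frequent in SINE peaks, with 16.6% in WT muscle, 18.1% in ERRα3SA muscle, 43.3% in WT liver and 42.7% in ERRα3SA liver, and rare in LINE peaks, with 0.680%, 0.534%, 2.66% and 4.26%. Peaks outside repeats held it in 3.62%, 3.81%, 12.0% and 12.1%. Without matching by score, repeat peaks differed from these by 7.35 points in ERRα3SA liver (3.72 to 11.6). In the other 3 lists the intervals included 0. In ERRα3SA liver the ERRE was in 4 of 10 repeat peaks with units of 1 base, 25 of 121 with 2, 10 of 36 with 3, 17 of 65 with 4, 4 of 39 with 5 and 5 of 38 with 6. In WT liver low complexity elements held it in 15 of 73, or 20.5% (12.9 to 31.2), and simple repeats in 18 of 216, or 8.33% (5.34 to 12.8). The order was the opposite in ERRα3SA liver, with 12 of 87, or 13.8% (8.07 to 22.6), in low complexity elements and 65 of 309 (16.9% to 25.9%) in simple repeats.

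Most ERREs under repeat peaks lay in repeat-masked bases, which the choice of these peaks favours: at the median 36.3% to 45.5% of their interval was masked, against 9.09% to 13.4% for the other non-promoter peaks. Hits in masked bases made up 60.0% of 15 hits in WT muscle, 67.7% of 31 in ERRα3SA muscle, 65.7% of 35 in WT liver and 69.1% of 81 in ERRα3SA liver, against 21.6% to 29.6% in peaks outside repeats and 74.3% to 80.4% in SINE peaks. Hits lay 71.0 to 93.0 bp from the interval centre at the median in repeat peaks and 67.5 to 75.0 bp in peaks outside repeats. In SINE peaks they lay nearer, at 42.0 to 46.0 bp. The commonest base at each of the 8 positions on either side gave the same sequence in the repeat peaks and in the SINE peaks of ERRα3SA muscle, shown here with the ERRE in capitals. The other lists of repeat peaks differed from their SINE peaks at 2 or 3 of the 16 positions. The likeness was not particular to repeat peaks, since peaks outside repeats gave the same sequence as the repeat peaks in both liver lists and equalled the SINE sequence at 14 of the 16 positions in ERRα3SA muscle.
Repeat peaks, ERRα3SA muscle: tcagaagtTCAAGGTCAtcctcagc
SINE peaks, ERRα3SA muscle: tcagaagtTCAAGGTCAtcctcagc
Repeat peaks, ERRα3SA liver: tcagaagtTCAAGGTCAtcctgagc
SINE peaks, ERRα3SA liver: tcagaagtTCAAGGTCAtcctcggc
Peaks outside repeats, ERRα3SA liver: tcagaagtTCAAGGTCAtcctgagc

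At least 12 of those 16 flanking bases equalled the SINE sequence in 3 of 15, 7 of 31, 7 of 35 and 12 of 81 hits under repeat peaks, in the order of the lists, against 26.7% to 31.9% in SINE peaks and 5.22% to 7.74% in peaks outside repeats. The hit at Dip2c printed above had 12 such bases, set against the SINE peaks of ERRα3SA liver, while those at Adgra1 and C1qa, which stand within the telomere-type array, had 4 or 5. At Adgra1, 13.5 kb from the TSS of this adhesion receptor gene, 2 copies started 12 bases apart, and the peak had scores of 65 in WT muscle, 188 in ERRα3SA muscle, 240 in WT liver and 323 in ERRα3SA liver. At C1qa, in intron 1 of this complement gene, the scores were 57 in ERRα3SA muscle, 185 in WT liver and 89 in ERRα3SA liver, and WT muscle had no peak within 300 bp. Outside the chromosome ends the ERRE was in 1 telomere-type peak of WT muscle and 2 of each other list, and at the ends only in the peaks near Tmx3 of the muscle lists.

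Of the other leading repeat peaks with an ERRE, those of WT muscle lay near Tmx3 at rank 659, near Ermp1, an endoplasmic reticulum peptidase, at rank 1020 and at Adgra1. In ERRα3SA muscle an AT-rich stretch near Lingo1, an inhibitor of myelination, ranked 585, and a TG repeat in intron 1 of Slc25a23, a mitochondrial carrier of ATP-Mg and phosphate, ranked 1218. The Slc25a23 region had scores of 45 in WT muscle, 177 in ERRα3SA muscle, 160 in WT liver and 260 in ERRα3SA liver. In WT liver a GA repeat in intron 2 of Por, the reductase that passes electrons to microsomal cytochromes, ranked 366, and a G-rich stretch near Nrsn2 ranked 633. In ERRα3SA liver the Dip2c peak led, and an AT-rich stretch near Ppp2r5a, a regulatory subunit of a protein phosphatase, ranked 600.

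Repeat peaks near genes of energy metabolism were few, and in liver their share was close to that of the other non-promoter peaks. Of 68 genes of fatty acid oxidation, the TCA cycle, respiration and their regulators, 56 to 61 had a peak of any kind within 20 kb in each list, but a repeat peak lay so near to none in the muscle lists and to Ndufv1, a core subunit of complex I, in both liver lists. This was 1 of 289 repeat peaks in WT liver, or 0.346%, and 1 of 396 in ERRα3SA liver, or 0.253%, beside 0.330% and 0.363% of the other non-promoter peaks there, and 0.356% and 0.213% in WT and ERRα3SA muscle. The Ndufv1 peak, on a CAGAGA repeat, ranked 5512 in WT liver and 1320 in ERRα3SA liver. Outside the gene list, and named after its values were seen, a TTTG repeat in intron 1 of Cox7a1, the cytochrome oxidase subunit of muscle and heart, ranked 356 in WT muscle, and its partner in ERRα3SA muscle ranked 246.

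Of 15 liver genes used as markers, 2 had a repeat peak within 20 kb in WT liver and 1 in ERRα3SA liver, and none of 15 muscle genes had one in any list. The share of the other non-promoter peaks near these genes is not given here. These few counts therefore have no background, and a contrast between liver and muscle genes cannot be read from them. A CA repeat 4.79 kb from the TSS of G6pc, which releases glucose from the liver, ranked 495 in WT liver and 650 in ERRα3SA liver, where a peak of score 45 was present in ERRα3SA muscle and none in WT muscle. A TGGA repeat 16.5 kb from Pck1, of gluconeogenesis, ranked 9851 in WT liver. By peaks of any kind, 11 and 13 of the 15 muscle genes had one in WT and ERRα3SA muscle and 9 and 7 in WT and ERRα3SA liver, and the liver genes 5 and 10 in muscle and 9 and 10 in liver, so that the liver genes with a peak were as many in ERRα3SA muscle as in ERRα3SA liver.

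Sharing with the other tissue was counted in the same way within a genotype. Of the WT muscle repeat peaks 17.6% had a WT liver peak within 300 bp (13.8 to 22.1), 6.88 percentage points more than the other non-promoter peaks (3.08 to 11.4). Within score classes this difference was 3.44 points at 30 to 49 (0.396 to 7.70) and -0.874 at 50 to 99 (-13.2 to 16.2). At 100 or more it was 10.1 (-7.20 to 23.4). Of those of ERRα3SA muscle 10.5% had an ERRα3SA liver peak (8.57 to 12.8), with an interval of the difference of -2.19 to 2.07. In liver the difference over all scores was 2.40 points in WT (-1.27 to 6.99) and 2.66 in ERRα3SA mice (-1.17 to 7.02). At scores of 100 or more the share in ERRα3SA muscle was 40.3% (29.7 to 51.8), against 60.1% of the others, a difference of -19.8 points (-30.6 to -8.12). In ERRα3SA liver it was 50.9% (41.6 to 60.2), against 40.8%, a difference of 10.1 points (0.736 to 19.5). The lower classes of ERRα3SA liver went the other way, at -3.50 points for 30 to 49 (-6.48 to 1.24) and -3.90 for 50 to 99 (-10.1 to 4.48).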

How the data were processed

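The 4 deposited lists of ERRα ChIP-seq peaks were used, and the 4 input samples hold no values used here. After the submitters' processing notes and the methods, trimming was done with Trimmomatic 0.36 and paired-end alignment to mm10 with BWA 0.7.12. The authors kept unique alignments, removed duplicates with Picard 2.0.1, called peaks against input with MACS2 2.1.1.20160309 at a stricter FDR than its default, and annotated them with HOMER 4.9.1. They describe windows of fixed width around summits, but the deposited intervals vary in width. Reads that fit several copies of a repeat equally well are lost when unique alignments are kept, and read depth is unknown. In the deposited lists the peak score is a number without fixed range, read here as a rank within a list. The GC and CpG contents are fractions of the interval, as deposited, and distances from a TSS are the deposited ones, in bp. The labels give 3 pooled immunoprecipitations per sample, while the methods of the paper give another number.

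Repeat peaks were those of the rule given in the report, and a repeat unit was named by its smallest rotation over both strands. Sequences were read from the RefSeq copy of GRCm38 patch 6 with pysam 0.24.0, after the GC fraction of every interval had been recomputed (equal within 0.01 in all but 0, 1, 2 and 2 peaks of the lists). TCAAGGTCA was searched on both strands of the central 300 bp. Host genes of introns were matched by RefSeq accession. Shares have 95% Wilson intervals, differences Newcombe intervals and ratios of numbers an interval built from a Wilson interval, and no p-values were computed, since each genotype and tissue has 1 list. The scripts were tested on simulated data. The repeat peaks, lists of genes and tests were chosen with earlier results of these data known. Regions were named by a rule: in each list the 5 best-ranked repeat peaks, the 3 best-ranked with an ERRE, the 3 best-ranked without a partner, the sites in all 4 lists, and those within 20 kb of a list of 68 energy metabolism genes. A few regions and sequences are not reported here. Telomere-type repeats, runs and ERRE flanks were looked at after the data were seen. Alternatives were score limits, lists of equal length, other distances, shared bases, other motifs, the whole interval, merged peaks and other treatment of ties.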

Additional observations from a re-analysis of the deposited data

Results flagged for a closer look

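The groups hold 1 list each, so no test for a stray sample was possible, and the differences of this paragraph were not tested. The genotype difference in the share of repeat peaks went in opposite directions in the tissues for 5 measures. The ERRE was in fewer of them in ERRα3SA than in WT muscle (3.33% and 4.08%) but in more in ERRα3SA than in WT liver (19.4% and 11.4%), so that the change in liver exceeded that in muscle by 8.77 percentage points. For the best 5% of the list the gap was 3.81 points (10.3% and 8.89% in WT and ERRα3SA muscle, 6.23% and 8.59% in liver), and for scores of 100 or more 6.24 points (10.3% and 8.89%, then 22.5% and 27.3%, beside 4.12%, 4.66%, 16.6% and 19.9% of the others). For the best 1% it was -1.34 points, with 1.88% and 2.35% in WT and ERRα3SA muscle and 1.38% and 0.505% in liver. For a peak of the same genotype in the other tissue it was 14.2 points (17.6% and 10.5%, then 14.9% and 22.0%), where the other non-promoter peaks stood at 10.7% and 10.7%, then 12.5% and 19.3%, so that the rise in liver was near that of the others. The ERRα3SA muscle list is the longest of the 4, and the part of list length in these gaps was not tested.

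Among repeat units, the pentamer class ACAGC went from 8 to 27 peaks between WT and ERRα3SA muscle and from 8 to 3 in liver. The ratio in muscle was 3.38 (1.56 to 7.29) and in liver 0.375 (0.108 to 1.30), and the former was 9.01 times the latter. This difference was not tested either.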

How the results depend on the processing

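Of 64 values under alternative settings, 18 stayed within the counting interval of the value reported and 46 left it. This tally does not measure robustness, since the direction of several shifts was fixed. No promoter peak named such a repeat, so keeping promoter rows could only lower the share slightly. Likewise, a wider distance or a looser motif could only raise a share, and a shorter distance only lower it. Order is WT muscle, ERRα3SA muscle, WT liver, ERRα3SA liver, and the cause of a shift was not tested unless a value shows it. The share of non-promoter peaks that were repeat peaks moved to 1.82%, 2.50%, 1.75% and 1.80% at scores of at least 50, to 3.29%, 3.12%, 1.90% and 1.99% at 100, and in ERRα3SA muscle to 1.87% at the WT length. The share with a partner was 18.5%, 7.16%, 28.0% and 25.3% within 100 bp, 34.8%, 16.0%, 55.7% and 48.5% within 1000 bp, and 34.2%, 14.0%, 52.9% and 45.5% by shared bases. At scores of at least 100 it was 81.8%, 43.1%, 80.0% and 86.1%, and by shared bases, chosen after seeing the data, 90.9%, 59.7%, 93.8% and 93.5%. At that score the other non-promoter peaks stood at 82.6%, 68.1%, 87.8% and 81.9% within 300 bp and at 97.7%, 80.1%, 97.8% and 90.4% by shared bases. The ERRE was in 6.90%, 6.05%, 17.3% and 25.5% of whole intervals, in 6.94%, 16.9% and 27.8% at 100 or more (the last 3 lists), and as TNAAGGTCA in 15.9% and 24.2% in liver. The core AAGGTCA, chosen after seeing the data, was in 9.40%, 8.64%, 26.0% and 34.8%, below the 13.0%, 14.1%, 34.4% and 37.2% of the other peaks in each list. The ratio of ERRα3SA to WT numbers was 2.18 in muscle and 1.66 in liver at 100 or more, and 1.42 and 1.11 at equal length, where fewer peaks enter by construction. For this ratio and the share above, tied scores at the cut to equal length were taken in list order. Median ranks stayed within the intervals of the medians under both alternatives. Depth is unknown, so no value here says what more reads would add. No paired analysis was possible because each genotype and tissue has 1 list.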
